A study of Rattus norvegicus with 11 samples.

Results

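The 4 genes of the corticosteroid response examined here were Nr3c1 (ENSRNOG00000014096), which encodes the glucocorticoid receptor, Nr3c2 (ENSRNOG00000034007), which encodes the mineralocorticoid receptor, and 2 genes that these receptors induce, Fkbp5 (ENSRNOG00000022523) and Sgk1 (ENSRNOG00000011815). They were taken by identifier, with no threshold on their values but with earlier results of these data known, and all 4 were found among the 15607 genes of the table used. RNA sequencing was performed on tissue punches of the medial prefrontal cortex (mPFC) of Sprague-Dawley rats of 2 to 3 months. The groups were males (n = 4), females in proestrus (n = 3), the stage with high ovarian hormone levels, and females in diestrus (n = 4), a stage with low levels. Each sample was 1 animal, and no transgene or drug is named for any group. Rats were housed in pairs, and cage mates of the same stage were killed together, so samples of 1 female group may include cage mates. Diestrus females were killed early in the day and proestrus females in the early afternoon, whereas males were killed on the same days as females. Stage and time of day therefore cannot be told apart, and both bear on genes that answer to corticosterone, whose level follows a daily rhythm.

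Corticosterone, the main glucocorticoid of the rat, enters neurons and glia and binds both receptors. The mineralocorticoid receptor has the higher affinity and is largely occupied at resting hormone levels, while the glucocorticoid receptor is occupied as the hormone rises at the daily peak or during stress. The bound receptors act as transcription factors. Fkbp5 encodes FKBP51, a cochaperone of HSP90 that lowers the hormone affinity of the glucocorticoid receptor and so forms a short negative feedback loop, and Sgk1 encodes a kinase that regulates ion channels and transporters, also in oligodendrocytes.

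Libraries held 15.9 to 24.6 M reads on genes. On the first principal component of the 11731 genes whose mean normalized count reached 50, which held 53.7% of their variance, diestrus replicates 2 and 3 and male replicate 3 stood apart, with scores of −28.6, −30.5 and −24.6 against −4.54 to 21.9 in the other 8 libraries. Differences between the stages are therefore also given without these 3 libraries for the 4 genes and for the pathway genes described with their values. Of the marker lists for the cell types of this tissue, none of the genes found was at 0 in any sample. Adora2a, a marker of striatal projection neurons, had 305 normalized counts in proestrus replicate 5 and 95.8 to 179.6 in the other samples.

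Nr3c2 showed the largest difference of the 4 genes, between the stages of the cycle. Its normalized counts (reads divided by the DESeq2 size factor of the library) were 126, 139 and 154 in proestrus replicates 1, 3 and 5. In diestrus replicates 2, 3, 4 and 5 they were 40.2, 51.2, 93.2 and 108. All 3 proestrus samples lay above all 4 diestrus samples, which was also the case for 15.0% of all genes. The proestrus mean was 139.7 ± 13.8 (SD, n = 3), against a diestrus mean of 73.1 ± 32.5 (SD, n = 4). The fitted log2 fold change was 1.03 (SE 0.29), a 2.05-fold higher level in proestrus with a 95% interval of 1.33 to 3.15. With limma, this difference had an unadjusted p of 0.00318 and did not pass the false discovery rate (FDR) of 0.05 over all genes (limma adjusted p = 0.0735). In bulk tissue, fewer cells of a type and less RNA per cell cannot be told apart, here or for the other genes.

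The call for Nr3c2 in proestrus vs diestrus depended on the tool and on single libraries. DESeq2 on the whole reads called it (log2 fold change 0.93, adjusted p = 0.0277), while the edgeR quasi-likelihood test gave 0.92 (adjusted p = 0.0889). With limma it passed without diestrus replicate 5 (1.26, adjusted p = 0.0173) and without male replicate 3 (1.03, adjusted p = 0.0466), a library of neither group. In the fit without male replicate 3 the unadjusted p of Nr3c2 was 0.00322, against 0.00318 with it, while the number of all genes called was 1147 against 395. Over all 21 alternatives the adjusted p was 0.0173 to 0.300 and the log2 fold change 0.47 to 1.26. The smallest value came from the fit without the 3 libraries that stood apart, where the level in proestrus was 1.38-fold that in diestrus (95% interval 1.05 to 1.83, limma adjusted p = 0.300). That the proestrus samples lay above diestrus replicates 4 and 5 there follows from the order of all samples given above and is no further result.

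The order of the samples in Nr3c2 followed the first component of all genes closely. Nr3c2 was itself among the 11731 genes of this component, which held 53.7% of their variance. How many other genes follow it as closely was not counted. Diestrus replicates 2 and 3, at one end of that component, had the lowest levels of Nr3c2, and male replicate 3, next to them, had the lowest level among males. Proestrus replicates 1, 3 and 5 and male replicate 4, at the other end, had the 4 highest levels. What this component measures was not tested. Marker levels were set beside the stages without a test of the sums. In proestrus vs diestrus 0 of the markers passed the FDR with limma, against 2.53% of all genes. The summed normalized counts of 6 neuronal markers were 55522 to 57778 in proestrus and 58713 to 74728 in diestrus, and within diestrus they were 69634 and 74728 in replicates 2 and 3 but 58713 and 59000.4 in replicates 4 and 5. Uchl1, Gap43 and Cplx1 made up most of these sums. Of the 6, 3 had a log2 fold change above and 3 below 0. Of these, Gabra4, a GABA-A receptor subunit, had 503 to 536 in proestrus and 136 to 291 in diestrus. Sums were 1509 to 1545 and 1605 to 1818 for 5 microglial markers, of which 4 were below 0 and Ptprc above (log2 fold change 0.34), and 3269.8 to 3694 and 3968 to 4545 for 4 mural and vascular markers, of which 3 were below 0 and Flt4 above (0.18). Pdgfra of oligodendrocyte precursors had 895 to 967 and 717 to 882. Of all genes, taken singly, 15.0% had all proestrus samples above all diestrus samples. The share with all proestrus samples below was not counted, so the gaps in the sums have no such value beside them. The stages overlapped in the sums of 4 astrocyte markers (20333 to 23592 and 22253 to 26554) and of 4 interneuron markers (8757 to 9970.2 and 8990.3 to 10404). Within the astrocyte list 2 were above and 2 below 0, with 216 to 238 and 91.6 to 193 for Sox9 and 752 to 842 and 879 to 988 for Fabp7. Their part in the difference of Nr3c2 was not tested.

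**Figure D1:**
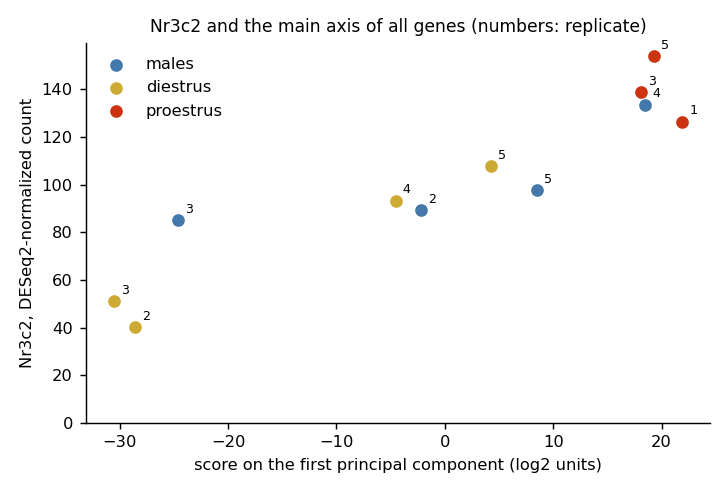
Normalized count of Nr3c2 (vertical axis) against the score on the first principal component of all genes whose mean normalized count reached 50 (horizontal axis, log2 units), 1 point per sample, coloured by group and numbered by replicate. Diestrus replicates 2 and 3 and male replicate 3 lie at the left with at most 85.0 normalized counts of Nr3c2, and the 3 proestrus samples and male replicate 4 lie at the right with at least 126.

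Nr3c2 in males lay between both female stages. The 4 males had 89.4, 85.0, 134 and 97.7 normalized counts in replicates 2, 3, 4 and 5, a mean of 101 ± 22.1 (SD, n = 4). They overlapped with diestrus, and male replicate 4 lay within the range of proestrus. The level in proestrus was 1.39-fold that in males (95% interval 0.904 to 2.14, limma adjusted p = 0.525), and the level in diestrus was 0.680-fold that in males (0.456 to 1.01, limma adjusted p = 0.534). Without the 3 libraries that stood apart these ratios were 1.32 (1.03 to 1.69, limma adjusted p = 0.392) and 0.953 (0.721 to 1.26, limma adjusted p = 0.961). The log2 fold change in diestrus vs males was −0.56, and −0.31 without diestrus replicate 2. Nr3c2 was the least sequenced of the 4 genes, with 41 to 151 reads per library, for which counting error alone is 8.14% to 15.6%. The coefficient of variation within diestrus, 44.5%, exceeded that error.

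Nr3c1 varied less. Its normalized counts were 1050.03, 953 and 1049 in proestrus replicates 1, 3 and 5, a mean of 1017 ± 55.5 (SD, n = 3). In diestrus replicates 2, 3, 4 and 5 they were 873, 905, 940.2 and 1035, a mean of 938 ± 70.1 (SD, n = 4). Males had 853, 733, 909 and 926 in replicates 2, 3, 4 and 5, a mean of 855 ± 87.2 (SD, n = 4). The stages overlapped, and the fitted level in proestrus was 1.09-fold that in diestrus (95% interval 0.944 to 1.25, limma adjusted p = 0.410), or 1.03-fold without the 3 libraries that stood apart (0.915 to 1.16, limma adjusted p = 0.847). All 3 proestrus samples lay above all 4 males, as they did for 7.69% of all genes. The nearest values were 953 and 926, with counting errors of 3.16% and 3.23%. The difference between proestrus and males was a log2 fold change of 0.25 (SE 0.09), or 1.19-fold (95% interval 1.04 to 1.37), with an unadjusted p of 0.0173 and a limma adjusted p of 0.388. In limma fits without a single library it was 0.18 to 0.30. The unadjusted p was 0.0117 to 0.0596 there, and above 0.05 without proestrus replicate 1 or 5. The level in diestrus was 1.10-fold that in males (0.965 to 1.25, limma adjusted p = 0.612). This log2 fold change of 0.14 was 0.064 without male replicate 3 and 0.088 without diestrus replicate 5. Over all alternatives, the adjusted p of the difference between proestrus and males was 0.208 to 0.760.

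The number of Nr3c1 reads per Nr3c2 read within a sample does not depend on the scaling of the library. It was 8.31, 6.87 and 6.81 in proestrus replicates 1, 3 and 5. In diestrus replicates 2, 3, 4 and 5 it was 21.7, 17.7, 10.1 and 9.59, and in males 9.54, 8.62, 6.81 and 9.48. All 3 proestrus samples lay below all 4 diestrus samples, but the nearest values were 1.29 apart, for which the counting error (1 SE) was 1.19. The males overlapped with proestrus, and their highest value, 9.54, was next to the lowest of diestrus, 9.59. The ratio is not one of transcript numbers, since gene length was not taken into account, and it was chosen after the values of both genes were seen.

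**Figure D2:**
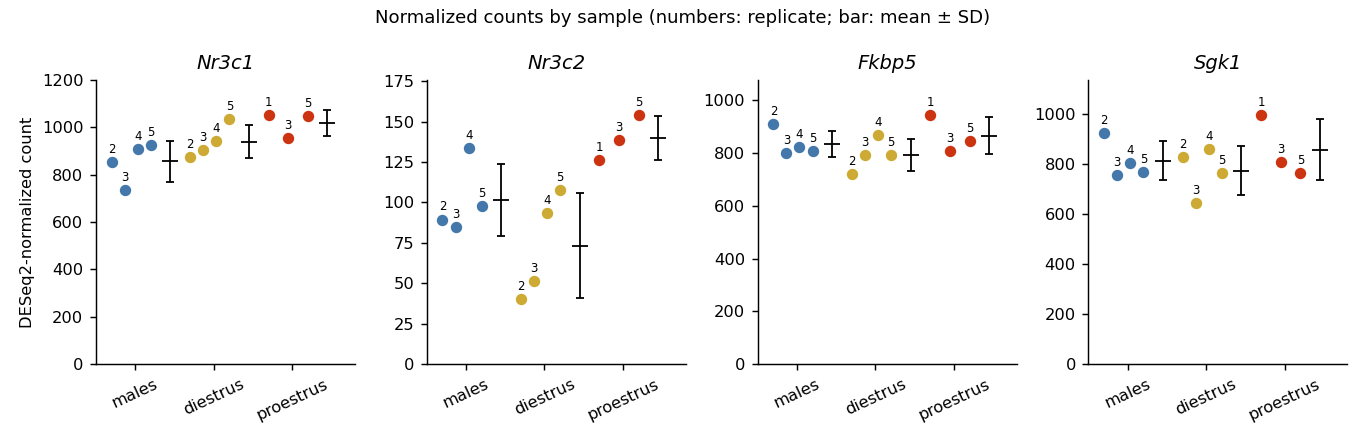
DESeq2-normalized counts (vertical axes, from 0) of Nr3c1, Nr3c2, Fkbp5 and Sgk1 in males, diestrus and proestrus (horizontal axes), 1 point per sample numbered by replicate, with the group mean and SD as a black bar. Nr3c2 is the gene in which the proestrus points lie above all diestrus points, while Fkbp5 and Sgk1 overlap in all groups.

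The 2 induced genes did not differ detectably between groups. Fkbp5 had 944, 807 and 846 normalized counts in proestrus replicates 1, 3 and 5. It had 721, 792, 869 and 793 in diestrus replicates 2, 3, 4 and 5, and 909, 802, 822 and 809 in the males of those numbers. The proestrus mean was 865 ± 70.5 (SD, n = 3), the diestrus mean 794 ± 60.3 (SD, n = 4) and the male mean 835 ± 49.7 (SD, n = 4), and each group overlapped with both others. The fitted level in proestrus was 1.09-fold that in diestrus (95% interval 0.957 to 1.24, limma adjusted p = 0.350) and 1.03-fold that in males (0.909 to 1.18, limma adjusted p = 0.809). Diestrus was 0.949-fold males (0.842 to 1.07, limma adjusted p = 0.735). This log2 fold change of −0.075 was −0.030 without diestrus replicate 2, −0.034 without male replicate 2 and −0.12 without diestrus replicate 4. With 695 to 1098 reads per library, counting error was 3.02% to 3.79%.

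Sgk1 had 997, 811 and 767 normalized counts in proestrus replicates 1, 3 and 5. It had 831, 644, 862 and 765 in diestrus replicates 2, 3, 4 and 5, and 926, 759, 807 and 768 in the males of those numbers. Proestrus replicate 1 and male replicate 2 were the highest samples in both Sgk1 and Fkbp5. For Sgk1 the proestrus mean was 858 ± 122 (SD, n = 3), the diestrus mean 775 ± 96.3 (SD, n = 4) and the male mean 815.3 ± 76.9 (SD, n = 4). The fitted level in proestrus was 1.11-fold that in diestrus (95% interval 0.927 to 1.32, limma adjusted p = 0.423) and 1.05-fold that in males (0.879 to 1.25, limma adjusted p = 0.805), and diestrus was 0.948-fold males (0.805 to 1.12, limma adjusted p = 0.801). A change of Fkbp5 above 1.24-fold, or of Sgk1 above 1.32-fold, from diestrus to proestrus lay outside these intervals, and smaller ones could not be told from 0. These differences moved with single libraries: the log2 fold change of Sgk1 was 0.15 in the full fit, 0.033 without proestrus replicate 1, 0.060 without diestrus replicate 3 and 0.22 without proestrus replicate 5, and that of Fkbp5 was 0.12 in the full fit, 0.060 without proestrus replicate 1 and 0.079 without diestrus replicate 2. Without the 3 libraries that stood apart, the level in proestrus was 1.04-fold that in diestrus for Fkbp5 (0.909 to 1.19, limma adjusted p = 0.817) and 1.05-fold for Sgk1 (0.882 to 1.25, limma adjusted p = 0.826). Against males, the sign of the log2 fold change of Sgk1 also turned with single libraries. It was −0.043 in proestrus vs males without proestrus replicate 1 and 0.0097 in diestrus vs males without diestrus replicate 3.

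When females were compared with males regardless of stage, the log2 fold changes were 0.19 for Nr3c1 (SE 0.08, 972 ± 72.6 normalized counts in 7 females), −0.11 for Nr3c2 (SE 0.33, 102 ± 43.1), −0.02 for Fkbp5 (SE 0.08, 825 ± 70.2) and −0.01 for Sgk1 (SE 0.10, 811 ± 107). Nr3c1 had an unadjusted p of 0.0375 and a limma adjusted p of 0.978, and the females overlapped with the males. Without male replicate 3 its log2 fold change was 0.11 (unadjusted p = 0.163, limma adjusted p = 0.978), and without all 3 libraries that stood apart it was 0.17 (unadjusted p = 0.0223, limma adjusted p = 0.657). The signs for Nr3c2, Fkbp5 and Sgk1 depended on the libraries used, and for Nr3c2 on the tool. The oligodendrocyte marker Mog had 613 to 915 normalized counts in males, 792 to 916 in proestrus and 838 to 1381 in diestrus. All 4 mural and vascular markers had a log2 fold change below 0 in females vs males. With limma 0 passed the FDR and 2 had an unadjusted p below 0.05, against 0.135% and 4.83% of all genes. Their sums were 3895 to 5185 in males, above all 3 proestrus samples and overlapping with diestrus. Of all genes, taken singly, 5.61% had all 3 proestrus samples below all 4 males. The sum of the immediate early genes Egr2, Ptgs2 and Sik1 was 1594 to 2154 in males, 762 to 1498 in proestrus and 761 to 1418 in diestrus. Egr2 made up most of it, with a male mean of 1419, against 315 for Sik1 and 165 for Ptgs2. In proestrus vs males 2 of the 3 had a log2 fold change below 0 and Ptgs2 was above (0.21), while in diestrus vs males all 3 were below. The part of these markers in the values of the 4 genes was not tested.

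**Figure D3:**
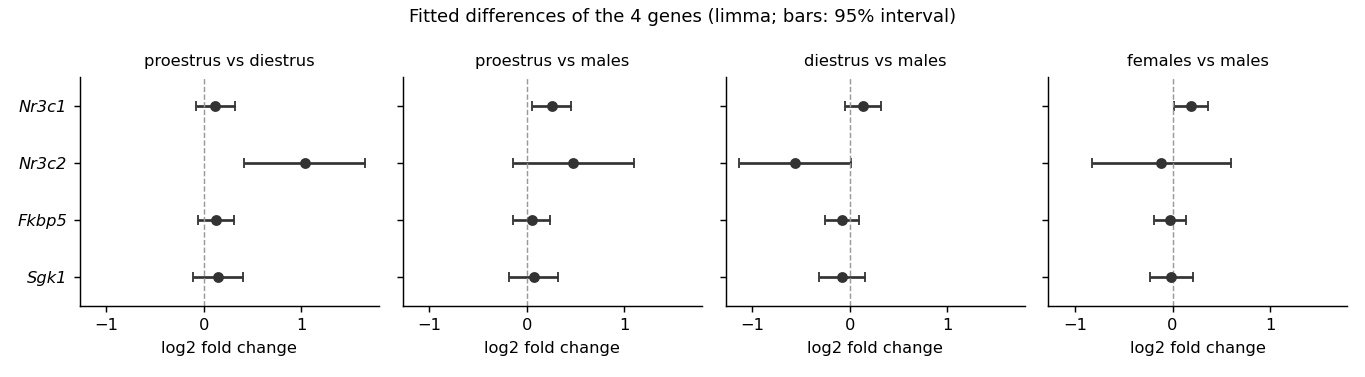
Fitted log2 fold changes (horizontal axes) of the 4 genes in each comparison, with 95% intervals from limma. The interval of Nr3c2 in proestrus vs diestrus (0.41 to 1.65) and those of Nr3c1 in proestrus vs males (0.05 to 0.46) and females vs males (0.01 to 0.36) exclude 0 before correction for the number of genes tested. Without male replicate 3, Nr3c1 in females vs males had an unadjusted p of 0.163. In proestrus vs males it had 0.0596 without proestrus replicate 1 and 0.0592 without proestrus replicate 5. None of the 16 tests passed the FDR.

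The calls over the 4 genes were read against those over all genes. In proestrus vs diestrus, limma called 0 of the 4 and 2.53% of all genes at the FDR, and 1 of the 4 (Nr3c2) and 26.7% of all genes at an unadjusted p below 0.05. With the quasi-likelihood test of edgeR, 0 of the 4 and 2.70% of all genes passed, and DESeq2 called 1 (Nr3c2) and 7.63% of the 14093 genes to which it gave an adjusted p. The DESeq2 shares of the other comparisons are likewise of the 14093, 15000 and 15001 genes with one in proestrus vs males, diestrus vs males and females vs males. In proestrus vs males, limma called 0 of the 4 and 0.0833% of all genes, with Nr3c1 as the 1 gene and 11.3% of all genes at an unadjusted p below 0.05. There, edgeR called 0 of the 4 and 0.0833% of all genes, and DESeq2 0 and 0.837%. In diestrus vs males, limma called 0 of the 4 at the FDR and 0 at an unadjusted p below 0.05, against 0.128% and 9.62% of all genes, edgeR 0 against 0.141% and DESeq2 0 against 0.780%. In females vs males, limma called 0 of the 4 and 0.135% of all genes, with Nr3c1 as the 1 gene and 4.83% of all genes at an unadjusted p below 0.05, edgeR 0 against 0.147% and DESeq2 0 against 0.513%. The 3 comparisons with males share the same 4 male libraries.

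Whether the receptors and their targets varied together from animal to animal was examined over the 11 samples, on log2(normalized count + 1). Fkbp5 and Sgk1 had the highest Pearson's r of the 6 pairs, 0.64 (permutation p = 0.0331, adjusted over the 6 pairs 0.198), with Spearman's rho 0.65 (permutation p = 0.0334, adjusted 0.100). Without proestrus replicate 1 and male replicate 2, the samples farthest from the median of Fkbp5, r was 0.12, so the relation rested on these samples, while it was 0.48 without the 2 samples farthest on Sgk1 and 0.57 on deviations from the group means. Nr3c1 and Nr3c2 had r = 0.48 (permutation p = 0.164, adjusted 0.329) and rho = 0.75 (permutation p = 0.01, adjusted 0.0600), and r was 0.60 without the 2 samples farthest on Nr3c1, 0.67 without those farthest on Nr3c2 and 0.64 on deviations from the group means. For Nr3c2 and Fkbp5, r was 0.56 (permutation p = 0.0685, adjusted 0.206; rho 0.47, permutation p = 0.146, adjusted 0.292), and it was −0.0014 without diestrus replicates 2 and 3, the samples farthest on Nr3c2, 0.72 without the 2 farthest on Fkbp5 and 0.34 on deviations from the group means.

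Each of the other 3 pairs had r of at most 0.30, with an adjusted permutation p of at least 0.447. For Nr3c1 and Fkbp5, r was 0.30 (permutation p = 0.359) and rho 0.37 (permutation p = 0.263, adjusted 0.394), and r was 0.02 without the 2 samples farthest on Nr3c1 and 0.30 without those farthest on Fkbp5. For Nr3c1 and Sgk1, r was 0.18 (permutation p = 0.592) and rho 0.19 (permutation p = 0.578, adjusted 0.694), and r was −0.31 and −0.17 without the 2 samples farthest on Nr3c1 and on Sgk1. For Nr3c2 and Sgk1, r was 0.30 (permutation p = 0.373) and rho 0.11 (permutation p = 0.757, adjusted 0.757), and r was −0.04 and −0.28 without the 2 samples farthest on Nr3c2 and on Sgk1. No pair passed the correction, and all pairs share the same libraries and size factors.

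**Figure D4:**
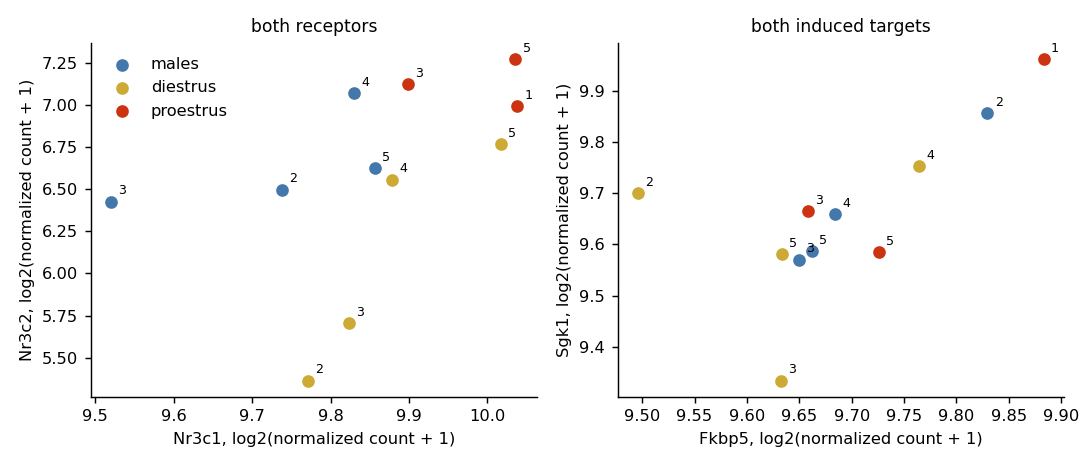
Levels on the log2(normalized count + 1) scale, of Nr3c2 against Nr3c1 (left) and of Sgk1 against Fkbp5 (right), 1 point per sample, coloured by group and numbered by replicate. On the right, proestrus replicate 1 and male replicate 2 lie highest on both axes, and r falls from 0.64 to 0.12 without them.

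The genes whose pattern over the 11 samples was most like that of each of the 4 were described by Pearson's r among the 11731 genes whose mean normalized count reached 50. The 3 nearest genes had r of 0.946 to 0.951 with Nr3c1, 0.975 to 0.984 with Nr3c2, 0.900 to 0.937 with Fkbp5 and 0.858 to 0.9403 with Sgk1. No gene of the 4 was among the nearest of another. The sources used here did not pair the 12 identifiers with symbols. The nearest to Nr3c2, ENSRNOG00000009821, had mean normalized counts of 454 in proestrus, 298 in diestrus and 379 in males, and the next, ENSRNOG00000005052, had 219.9, 126 and 166.

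The wider pathway was described with lists of further glucocorticoid-induced genes, inflammatory genes that glucocorticoids repress, chaperones and coregulators of the receptors, and genes of corticosteroid supply. Of 59 genes listed besides the 4, 17 could be tied to an identifier. In proestrus vs diestrus, 1 of the 17 passed the FDR with limma, with edgeR and with DESeq2, against 2.53% and 2.70% of all genes and, with DESeq2, 7.63% of the genes with an adjusted p, and it was higher in proestrus. The median log2 fold change of the 17 was 0.06, against −0.01 for all genes, and 9 had a log2 fold change above and 8 below 0.

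The gene that passed was Foxo3, a transcription factor of the forkhead family that acts in stress resistance and cell survival and is induced by glucocorticoids in several tissues. Its normalized counts were 316, 321 and 290.4 in proestrus replicates 1, 3 and 5. They were 119, 90.5, 114 and 169 in diestrus replicates 2, 3, 4 and 5, and 193, 131, 259 and 185 in the males of those numbers. All 3 proestrus samples lay above all other samples. They lay above all diestrus samples for 15.0% of all genes and above all males for 7.69%. Mean levels were 309 ± 16.5 for proestrus (SD, n = 3), 123 ± 33.0 for diestrus (SD, n = 4) and 192 ± 52.4 for males (SD, n = 4), and Foxo3 rose by a log2 fold change of 1.36 from diestrus to proestrus (SE 0.22, limma adjusted p = 0.0145). It lost the FDR with limma without proestrus replicate 1 (adjusted p = 0.105), 3 (0.0790) or 5 (0.0627) or diestrus replicate 2 (0.0528). Its log2 fold change was at least 1.33 in each of these fits, and the number of all genes called was 0, 0, 25 and 21, against 395. Without the 3 libraries that stood apart it passed (log2 fold change 1.15, adjusted p = 0.00992).

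Of the 22 glucocorticoid-induced genes listed, Fkbp5 and Sgk1 included, 5 besides these 2 could be tied to an identifier, so most of the list was not examined. Among the 4 of them other than Foxo3, 0 passed in proestrus vs diestrus. Cdkn1a, the cell-cycle inhibitor p21, had the largest difference among them, a log2 fold change of −0.32 (SE 0.16, limma adjusted p = 0.208), which was −0.079 without the 3 libraries that stood apart (limma adjusted p = 0.836). The median of the 5 genes of this list, Foxo3 included, was 0.10, with 3 above and 2 below 0. Of the 2 inflammatory genes found, Ptgs2, which encodes the inducible cyclooxygenase and is also an activity-dependent gene of neurons, had 185, 172 and 168 normalized counts in proestrus replicates 1, 3 and 5 and 70.5, 66.5, 121 and 141 in diestrus replicates 2, 3, 4 and 5. The groups of Ptgs2 did not overlap, with all proestrus above all diestrus samples as for 15.0% of all genes, and diestrus replicates 2 and 3 were again the lowest. Its log2 fold change was 0.88 (SE 0.34, limma adjusted p = 0.139), and 0.42 without the 3 libraries that stood apart (limma adjusted p = 0.485). Tnf had at most 8.72 normalized counts in any sample.

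The chaperones showed small differences between the stages. The 4 found (Ptges3, Fkbpl, Hsph1 and Bag6) had log2 fold changes of −0.15 to −0.01 in proestrus vs diestrus, and 0 of 4 passed. Of the 5 coregulators (Ncor1, Nrip1, Ep300, Hdac2 and Daxx), 0 passed, 4 had a log2 fold change above and 1 below 0, and the median was 0.07. Ep300, a histone acetyltransferase and coactivator, had the largest difference among them, with means of 30.0 ± 4.94 normalized counts over the 3 proestrus samples (SD) and 19.7 ± 7.11 over the 4 diestrus samples (SD), a log2 fold change of 0.64 (SE 0.31, limma adjusted p = 0.198). Without the 3 libraries that stood apart that of Ep300 was 0.21 (limma adjusted p = 0.792). Cyp21a1, the 21-hydroxylase of corticosteroid synthesis and the single gene of supply found, had 2.04 to 6.65 normalized counts.

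**Figure D5:**
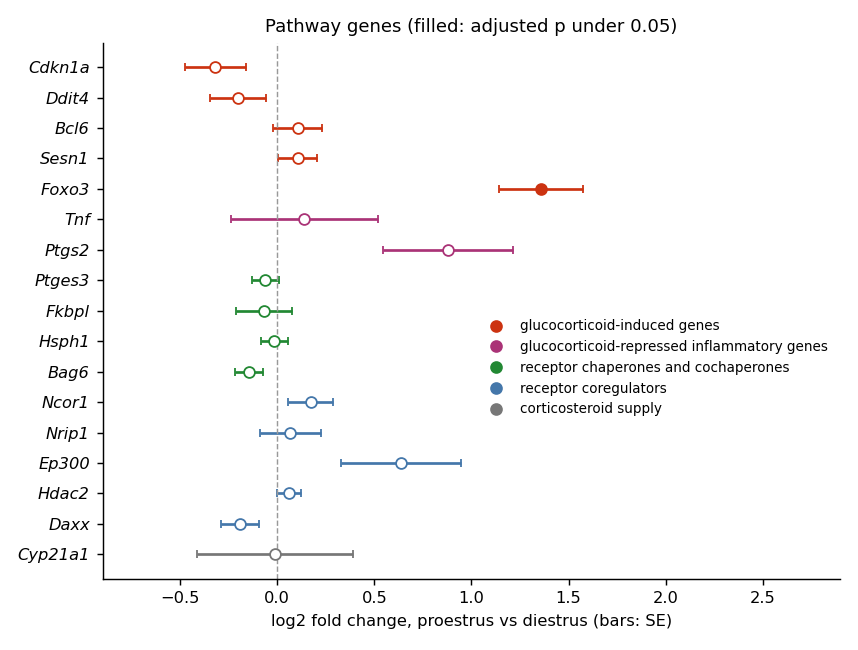
Log2 fold change in proestrus vs diestrus (horizontal axis) of the 17 further pathway genes (vertical axis), coloured by list, with the SE from limma as bars and filled points where the adjusted p was below 0.05. Foxo3, at 1.36, is the one filled point, and the 4 chaperones lie between −0.15 and −0.01.

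Against males, 0 of the 17 pathway genes passed with limma or edgeR in either stage. Of all genes, 0.0833% passed with each of these tools in proestrus vs males, and 0.128% (limma) and 0.141% (edgeR) in diestrus vs males. In proestrus vs males, DESeq2 called 1 of the 17, Cdkn1a, and with limma 2 (Cdkn1a and Foxo3) had an unadjusted p below 0.05, against 0.837% of the genes with an adjusted p in DESeq2 and 11.3% of all genes in limma. In diestrus vs males DESeq2 called 0, against 0.780% of the genes with an adjusted p, and 3 (Cdkn1a, Foxo3 and Ptgs2) had an unadjusted p below 0.05 with limma, against 9.62% of all genes. In females vs males all 3 tools called 0, against 0.135% (limma), 0.147% (edgeR) and 0.513% (DESeq2) of the genes tested. There, 1 (Cdkn1a) had an unadjusted p below 0.05 with limma, against 4.83% of all genes. The normalized counts of Cdkn1a were 235, 186 and 229 in proestrus replicates 1, 3 and 5, 351, 289, 248 and 209 in diestrus replicates 2, 3, 4 and 5, and 305, 380.1, 368 and 342 in the males of those numbers. All 3 proestrus samples lay below all 4 males, as they did for 5.61% of all genes. The log2 fold change was −0.68 in proestrus vs males (SE 0.16, limma adjusted p = 0.203), −0.37 in diestrus vs males (SE 0.15, adjusted p = 0.473) and −0.50 in females vs males (SE 0.15, adjusted p = 0.543). Without the 3 libraries that stood apart these values of Cdkn1a were −0.64, −0.56 and −0.61 (limma adjusted p = 0.0712, 0.156 and 0.0534).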

How the data were processed

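The authors prepared unstranded poly(A) libraries with spike-ins, trimmed reads with Trimmomatic 0.32, aligned them to Rnor_5.0 with TopHat2 2.0.11 and Bowtie2 2.1.0 (versions from the submitters' processing notes), counted uniquely mapped reads per Ensembl gene with HTSeq, removed genes under a spike-in-based minimum and left out 1 proestrus library. The deposited tables give 1 signal value per gene and library, normalized with DESeq2 or edgeR. Every value of the DESeq2 table was a whole number of reads times 1 step per library (100% of values, tolerance 0.01). The edgeR table was not scaled for depth and was not used for tests. Replicates of a group were no copies of each other (chi-square per degree of freedom of at least 4.94 in 15 pairs).

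The main test was limma 3.58.1 (R 4.3.3) with an abundance trend on log2(DESeq2-normalized count + 1), over all 15607 genes, with Benjamini-Hochberg adjustment at an FDR of 0.05. The 3 groups shared 1 fit, and females vs males was a fit on sex. This scale understates changes of low counts. Alternatives were edgeR 4.0.16 and DESeq2 1.42.0 on the recovered reads, other scalings, pseudocounts, filters and samples. The fit without 3 libraries was added after seeing the data. Scripts were tested on simulated data. Correlations used permutation tests with 100000 resamples, two-sided. The genes named with their own values by rule were the 4, the 3 nearest in pattern to each (2 are printed by identifier), and pathway genes past the FDR or among the 4 with the largest change in proestrus vs diestrus. Other list members are named beside the count of their list, and Tnf, Cyp21a1 and the markers named were chosen after their values were seen. Genes of the lists were tied to identifiers through the identifier and symbol columns of the part held of the study's gene table, ordered by identifier, none of whose fold changes or p-values was used. The RefSeq table used here paired 0 of 47357 genes with an Ensembl identifier. A few genes of the lists are not reported here. The genes and lists were chosen with earlier results of these data known.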

Additional observations from a re-analysis of the deposited data

Results flagged for a closer look

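Foxo3 differed between the stages in its effect against males. Its log2 fold change against males was 0.72 in proestrus and −0.63 in diestrus, and the difference of both, 1.36, is the tested contrast of proestrus vs diestrus (limma adjusted p = 0.0145). Both stages were set against the same 4 males. No single sample passed Dixon's test in the 18 sets of 4 samples examined (the 4 genes, the ratio of both receptors, and Foxo3, Ptgs2, Ep300 and Cdkn1a, in diestrus and in males). The nearest to it was Fkbp5 in male replicate 2, whose gap to the next male was 0.819 of the whole male range, under the 95% critical value. This test looks for 1 sample far from the rest and cannot find a pair such as diestrus replicates 2 and 3, which lay close together in Nr3c2.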

How the results depend on the processing

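Of 336 values of the 4 genes under alternative settings, 318 kept their direction and their side of the FDR, 3 passed it newly and 15 changed sign. Many of these values could not change sign. The filter on the mean, a fit of only the groups compared, or leaving out a library of the group not compared returns the fold change of the main fit. The count is therefore no measure of how stable the directions were. Those that passed were all Nr3c2 in proestrus vs diestrus, with DESeq2 (0.93), without diestrus replicate 5 (1.26) and without male replicate 3 (1.03). Over all 11 fits without a single library, its log2 fold change was 0.79 to 1.26, and the other 9 did not pass. The changes of sign were in small differences. In females vs males, Nr3c2 had a log2 fold change of 0.0075 with edgeR and 0.0059 with DESeq2, and without the 3 libraries that stood apart it was 0.21, with Sgk1 at 0.0083 and Fkbp5 at 0.0079. The causes were not tested. Leaving out single libraries gave −0.24 to 0.082 for Nr3c2, −0.065 to 0.049 for Sgk1 and −0.055 to 0.020 for Fkbp5 in females vs males, −0.043 to 0.15 for Sgk1 and −0.014 to 0.098 for Fkbp5 in proestrus vs males, and −0.13 to 0.0097 for Sgk1 in diestrus vs males. The sign turned in females vs males without diestrus replicate 2 or 3 or male replicate 4 for Nr3c2, diestrus replicate 3 or male replicate 2 for Sgk1 and diestrus replicate 2 or male replicate 2 for Fkbp5. It turned without proestrus replicate 1 for Sgk1 and Fkbp5 in proestrus vs males, and without diestrus replicate 3 for Sgk1 in diestrus vs males.

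The number of all genes called moved more. In proestrus vs diestrus it was 395, 817 with only the groups compared, 1076 with DESeq2 and 0 to 1774 without single libraries. In proestrus vs males it was 13, 23 with only the groups compared, 118 with DESeq2, 24 without the 3 libraries and 2 to 26 without single libraries. In diestrus vs males it was 20, 6 with a mean of at least 50, 117 with DESeq2 and 1 to 88 without single libraries. In females vs males it was 21, 77 with DESeq2 and 1 to 24 without single libraries.

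With the replicate number as a block (replicate block), Nr3c2 in proestrus vs diestrus had a log2 fold change of 1.10 (limma adjusted p = 0.0503), and the calls numbered 517, 3, 47 and 18 in the 4 comparisons. The labels do not say that a number pairs samples, and deviations of same-numbered samples correlated with r from 0.01 to 0.59 in 8 pairs, against −0.67 to 0.58 in 32 other pairs, with 6 of 10 samples correlating best with their own number. The block changed no call of the 4 genes at the FDR, while the unadjusted p went from 0.0567 to 0.0176 for Nr3c2 in diestrus vs males and from 0.0375 to 0.0515 for Nr3c1 in females vs males. Nr3c2 had 41 to 151 reads per library, the fewest of the 4, and its counting error was below its spread within diestrus.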
